A study of Caenorhabditis elegans with 12 samples.

Results

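The genes described here encode the proteins of the cytosolic ribosome of Caenorhabditis elegans, the small roundworm. They were taken by name: every protein-coding gene whose symbol is rpl- or rps- followed by a number, together with rla-0, rla-1, rla-2 and ubl-1, provided that it had at least 10 counts in at least 3 libraries. Of 46748 gene identifiers in the count table, 82 matched by name and 81 met the count condition. The gene left out was rpl-42, which had 0 to 11 counts per library. By their symbols, 49 of the 81 members were assigned to the large subunit and 32 to the small subunit. All 81 also passed the expression filter that left 16618 genes for testing.

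RNA was sequenced from whole hermaphrodites of 5 days of age, in 12 libraries of 4 groups with 3 libraries each. Animals of CF1038, which carry the deletion allele daf-16(mu86) and so lack normal activity of the FOXO factor downstream of insulin signalling, carried the perturbation label bcat-1 (RNAi) or the empty vector L4440. Animals of TU3311, labelled as carrying a sid-1 transgene for RNAi in neurons, carried the label daf-7 (RNAi) or L4440. L4440 is the plasmid commonly used for RNAi by feeding bacteria, and vector groups of both strains share it; the labels do not describe the feeding. The labels name neither the promoter of the transgene nor the origin of replicates from separate cultures, so each p-value measures the spread between libraries, which may be technical. The strain comparison is one of 2 different constructed strains, each carrying an alteration the other lacks, and not of a mutant with its own wild type. The titles carry one number in the names of the daf-16(mu86) libraries and another in those of TU3311, while the descriptions carry 1 number for all 12. The labels do not say what the number marks, and anything it marks cannot be told apart from strain.

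A ribosome is built of ribosomal RNA and about one copy of each ribosomal protein, assembled in the nucleolus and finished in the cytoplasm. Because the proteins are needed in equal number, their genes are known in many species for high and closely coordinated expression, and in the worm much of this output serves the germ line, where oocytes are loaded with ribosomes. A few ribosomal proteins of the worm have a pair of genes. The autosomal rpl-11.1 and the X-linked rpl-11.2 form one such pair, and the autosomal rpl-25.2 and the X-linked rpl-25.1 another. On build WBcel235 rpl-11.2 (WBGene00004423) lies at X:2241738-2242618 on the minus strand and rpl-11.1 (WBGene00004422) at V:3585312-3586064 on the minus strand, while rpl-25.1 (WBGene00004438) lies at X:4715178-4715796 on the plus strand and rpl-25.2 (WBGene00004439) at I:8329062-8329647 on the minus strand. In the remaining pairs all genes are on chromosome I, rpl-24.2 (WBGene00004437) at I:9669415-9670098, rpl-24.1 (WBGene00004436) at I:4585115-4586176, and rpl-41.1 (WBGene00023067) and rpl-41.2 (WBGene00023068) next to each other at I:4789190-4789592 and I:4790292-4790642, all on the plus strand. None of these 8 genes shares an exon with another gene in the annotation. Pairs are taken here by their numbered symbols. rpl-24.2 is a relative of the assembly factor RSL24D1 of human cells and rpl-24.1 encodes a core protein. That pair is therefore not a pair of genes for the same protein. The X chromosome of the worm is known to be kept largely silent in the germ line.

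The libraries held 30130249 to 45343624 counts assigned to genes. Library 7 (TU3311 on vector, replicate 1) and library 8 (TU3311 labelled daf-7 RNAi, replicate 1) stood apart from the other 10. X-linked genes took 14.5 and 14.3% of counts in libraries 7 and 8, against 6.12 to 8.72% elsewhere, and the yolk protein genes vit-1 to vit-6 took 8.88 and 8.70%, against 2.81 to 4.52%. The X-linked share counts every gene on X, yolk protein genes on X included, so these shares are not separate measures. The summed level of 20 germline and oocyte marker genes was 5792 and 5913 CPM (counts-per-million, TMM-scaled) in these libraries and 12020 to 23542 CPM in the others. Neither RNAi target was lower where its RNAi is labelled. bcat-1 averaged 199 ± 29.6 CPM under labelled bcat-1 RNAi and 140 ± 10.2 CPM on vector, and daf-7 averaged 94.5 ± 55.6 CPM under labelled daf-7 RNAi and 8.89 ± 2.97 CPM on vector (SD, n = 3 each). Groups are therefore named as labelled.

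Per kilobase of exon the members were among the most abundant transcripts of the animals. Their median level over the 12 libraries was 1729 CPM per kb, while the median of all 16489 tested genes with a known exon length was 6.38 CPM per kb. Among the 200 most abundant genes on this scale, 76 were members. The highest were rps-25, a small subunit protein gene, with 3621 CPM per kb and rpl-41.2, a large subunit protein gene, with 3601 CPM per kb. Next came rpl-10, whose protein joins the large subunit late in its assembly, with 2890 CPM per kb, and rps-23, whose protein lies at the decoding centre, with 2657 CPM per kb. Within 2-fold of the members' median level lay 70 of the 81 genes.

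The low end of the level scale was set by 5 genes at less than 0.25 of the members' median, all assigned by symbol to the large subunit. rpl-37 was lowest with 125 CPM per kb (range over 12 libraries 78.1 to 162). rpl-24.2, a relative of the assembly factor RSL24D1 of human cells, had 146 CPM per kb. The levels of rpl-41.1, rpl-25.1 and rpl-11.2 were 248, 262 and 363 CPM per kb. All of these but rpl-37 are the less abundant gene of a numbered pair, called the minor paralog here. For rpl-24.2 this is a name only, as its pair does not encode the same protein. The ranges over libraries of neighbouring genes overlapped throughout this order. The range of rpl-37, up to 162, lay below those of rpl-25.1, from 185, and rpl-11.2, from 249. Ranges pool libraries of both strains, so their overlap does not show whether the order of neighbours differed within a library. The exon length used ran from 236 to 1456 bases among members, and 15 members overlap an exon of another gene in the annotation, 5 of them on the same strand. Whether counting used strand is not given in the sources used here, so reads of those genes cannot be separated from the partner's.

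**Figure D1:**
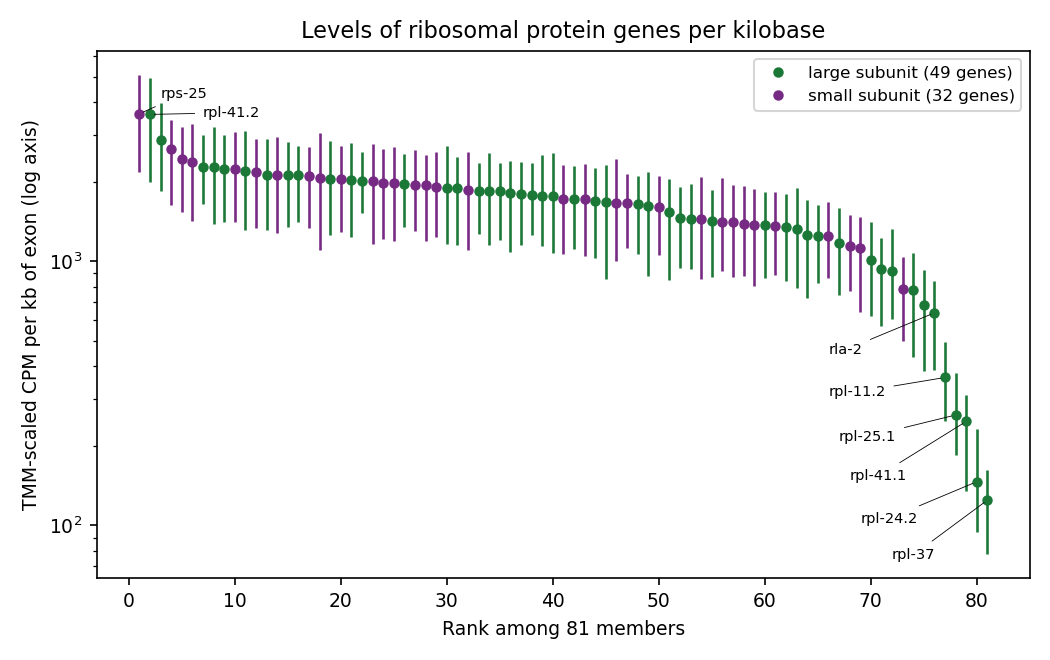
Level of each of the 81 members in TMM-scaled CPM per kb of exon, on a log axis, ordered by the mean over 12 libraries (points, green for the large and purple for the small subunit), with the range over libraries (lines). Most members lie close to the median of 1729 CPM per kb, and the 5 lowest are rpl-11.2, rpl-25.1, rpl-41.1, rpl-24.2 and rpl-37.

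The share of all assigned counts that the 81 members took together is a measure that no scaling between libraries enters. The members held 10.1, 9.22 and 9.95% of counts in daf-16(mu86) labelled bcat-1 RNAi, and 8.02, 8.15 and 8.30% in daf-16(mu86) on vector. They held 6.32, 6.54 and 6.44% in TU3311 labelled daf-7 RNAi, and 5.70, 6.34 and 7.41% in TU3311 on vector. All 6 daf-16(mu86) libraries stood above all 6 TU3311 libraries, and within daf-16(mu86) the 3 libraries labelled bcat-1 RNAi stood above the 3 on vector.

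Group means of this share were 9.76 ± 0.476% in daf-16(mu86) labelled bcat-1 RNAi and 8.16 ± 0.138% on vector (SD, n = 3 each), a difference of 1.61 percentage points or 1.20-fold. In TU3311 they were 6.43 ± 0.110% with labelled daf-7 RNAi and 6.48 ± 0.860% on vector, a difference of -0.0494 points that was smaller than the spread on vector. The daf-16(mu86) vector libraries exceeded the TU3311 vector libraries by 1.67 points, or 1.26-fold. A two-sided exact permutation test gave p = 0.1, 0.9 and 0.1 for these 3 differences. Adjusted over the 3 by Benjamini-Hochberg they were 0.15, 0.9 and 0.15. With 3 against 3 libraries the smallest possible p is 0.1, so none could pass 0.05. Both subunits had the same order of group means. Large subunit genes averaged 5.53% in daf-16(mu86) labelled bcat-1 RNAi, 4.64% in daf-16(mu86) on vector, 3.69% in TU3311 labelled daf-7 RNAi and 3.72% in TU3311 on vector, and small subunit genes averaged 4.24, 3.52, 2.75 and 2.76% in the same groups. The spread in TU3311 on vector came from library 7 at the low end and library 11 at the high end. In bulk RNA of whole animals, fewer cells of a type and less RNA per cell cannot be told apart.

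**Figure D2:**
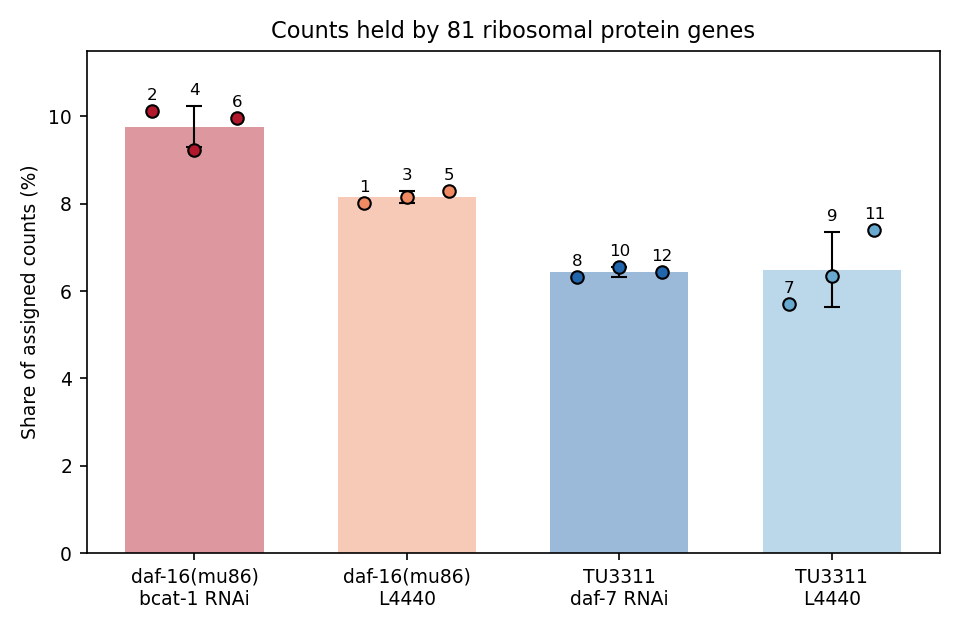
Percent of assigned counts held by the 81 members, by group; bars are means, error bars SD (n = 3) and points libraries, numbered as in the labels. The daf-16(mu86) libraries lie at 8.02% or above and the TU3311 libraries at 7.41% or below.

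The comparison of daf-16(mu86) labelled bcat-1 RNAi with daf-16(mu86) on vector asks how transcript levels differ under the labelled knockdown of the branched-chain aminotransferase. On the TMM scale the members as a set stayed close to 0. Their median log2 difference was 0.09 (1.06-fold), the median of all genes tested being 0.16, and 65 members were on the positive side and 16 on the negative, where 58.5% of all genes were positive. The SD over all 81 members, the highest ones included, was 0.14. With the scaling set by library totals the median was 0.29, and with RLE factors it was -0.12. Its distance from the median of all genes was -0.07 on the TMM scale and -0.08 with each of those scalings, and it ran from -0.15 without the expression filter to 0.04 without replicate 2 of the libraries labelled bcat-1 RNAi, over 14 other settings.

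No member passed an adjusted p of 0.05 by edgeR in that comparison, where 4.32% of all genes were called, 4.18% higher and 0.144% lower. None did by DESeq2, where 3.55% of all genes were higher and 1.44% lower. At an unadjusted p under 0.05 there were 3 members, rpl-11.2, rpl-25.1 and rpl-24.2, where 21.7% of all genes reached it. The 3 libraries labelled bcat-1 RNAi stood above the 3 on vector for 7 members, namely these 3 with rpl-41.1, rpl-19, rpl-33 and rps-3, against 29.5% of all genes. For no member did they stand below, against 25.1% of all genes.

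rpl-11.2, the X-linked gene of the uL5 protein that binds 5S ribosomal RNA, had 319, 349 and 282 CPM in daf-16(mu86) labelled bcat-1 RNAi, against 189, 203 and 182 CPM on vector. All 3 libraries labelled bcat-1 RNAi lay above all 3 on vector, with a gap wider than the spread of either group. The log2 difference was 0.73 ± 0.24 (SE) and missed the threshold, with an edgeR adjusted p of 0.0985. In the fit that takes neighbouring numbers as a replicate block, rpl-11.2 passed (0.72 ± 0.09, edgeR adjusted p = 5.97e-04), as it did without libraries 7 and 8 (adjusted p = 0.00138), which enter this comparison only through the shared spread and scaling; over 14 other settings its adjusted p ran up to 0.316.

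Its partner rpl-11.1 on chromosome V did not share this difference. rpl-11.1 had 1519, 1115 and 1498 CPM in daf-16(mu86) labelled bcat-1 RNAi, against 1472, 1354 and 1451 CPM on vector. The groups overlapped, and the log2 difference was -0.05 ± 0.25 (edgeR adjusted p = 0.909).

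rpl-25.1, the X-linked gene of a protein at the exit of the peptide tunnel, showed values like those of rpl-11.2. It had 164, 153 and 136 CPM in daf-16(mu86) labelled bcat-1 RNAi, against 92.0, 105 and 91.4 CPM on vector. The groups did not overlap, and the log2 difference was 0.65 ± 0.25 (edgeR adjusted p = 0.156; with the replicate block 0.65 ± 0.11, adjusted p = 0.00174; over 14 other settings 0.00106 to 0.423). Its autosomal partner rpl-25.2 had 1079, 818 and 989 CPM in daf-16(mu86) labelled bcat-1 RNAi, against 1006, 1038 and 1066 CPM on vector. There the groups overlapped and the log2 difference was -0.11 ± 0.24 (edgeR adjusted p = 0.786).

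rpl-24.2, on chromosome I, had 122, 105 and 135 CPM in daf-16(mu86) labelled bcat-1 RNAi, against 80.0, 87.0 and 94.3 CPM on vector. The groups did not overlap, the closest libraries being the lowest one labelled bcat-1 RNAi and the highest on vector. The log2 difference of 0.47 ± 0.21 missed the threshold (edgeR adjusted p = 0.206) and passed with the replicate block (adjusted p = 0.00977), without libraries 7 and 8, with only the 6 libraries compared, with upper-quartile factors and with library totals. Over 14 other settings its adjusted p ran from 0.00507 to 0.545. Its partner rpl-24.1, which encodes a core protein of the large subunit, had a log2 difference of 0.03 ± 0.198 (edgeR adjusted p = 0.935). rpl-41.1 stood at 0.29 ± 0.28 (adjusted p = 0.529) and rpl-41.2 at 0.17 ± 0.25 (adjusted p = 0.679).

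With the replicate block the same edgeR test called rpl-11.2, rpl-24.2 and rpl-25.1 higher and no member lower, where 25.7% of all genes were called higher and 18.5% lower. The fit without libraries 7 and 8 called these 3 members, where 20.9% of all genes were higher and 14.8% lower. The fit to only the 6 libraries compared called 6 higher, adding rpl-39, rpl-41.1 and rps-29, where 24% of all genes were higher and 16.5% lower. With upper-quartile factors rpl-24.2 alone was called, where 4.12% of all genes were higher and 0.0903% lower, and likewise with library totals, where 6.84% were higher and 0.0842% lower. In each of these fits at least 75 members were not called.

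The other members lay within a band around 0 in this comparison. The lowest was rps-6, whose protein is the target of S6 kinase, with 1141, 960 and 995 CPM in daf-16(mu86) labelled bcat-1 RNAi and 1226, 1128 and 1218 CPM on vector. Its groups overlapped slightly, and the log2 difference was -0.21 ± 0.202 (edgeR adjusted p = 0.538). Next lowest were rpl-9 (-0.16 ± 0.21), rpl-25.2 with the value above, and rps-2 (-0.09 ± 0.23), whose protein lies near the messenger RNA entry of the small subunit. Of the stalk proteins, which recruit elongation factors to the large subunit, rla-0 stood at 0.12 ± 0.18, rla-1 at 0.10 ± 0.21 and rla-2 at 0.09 ± 0.21. ubl-1, which encodes a ubiquitin-like domain fused to a small subunit protein, stood at 0.13 ± 0.21. None of these passed the test.

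The comparison of TU3311 labelled daf-7 RNAi with TU3311 on vector asks how transcript levels differ under the labelled knockdown of a TGF-beta ligand that acts in dauer formation. No member passed the test. The median log2 difference of the members was 0.01, as was that of all genes tested, and 44 were on the positive side and 37 on the negative, where 52.7% of all genes were positive. The call counts were 0 by edgeR, where 0% of all genes were called, and 0 by DESeq2, where 0.00602% were higher and 0.012% lower, and 0 members had an unadjusted p under 0.05, where 0.463% of all genes did. The groups were separate for 0 members in either direction, against 0.65% of all genes higher and 0.644% lower.

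The range over members ran from -0.14 for rpl-24.2 to 0.10 for rla-0, the gene of the stalk base protein. rla-0 had 1678, 1876 and 1997 CPM in TU3311 labelled daf-7 RNAi, against 1568, 1888 and 1727 CPM on vector. rpl-24.2 had 59.0, 68.3 and 63.7 CPM in TU3311 labelled daf-7 RNAi, against 54.9, 72.0 and 83.3 CPM on vector. The groups overlapped in both cases, and both log2 differences were smaller than their standard errors, 0.10 ± 0.18 for rla-0 and -0.14 ± 0.21 for rpl-24.2 (edgeR adjusted p = 1 for each). The 2 X-linked members stood at -0.01 ± 0.24 for rpl-11.2 and -0.03 ± 0.25 for rpl-25.1. Without libraries 7 and 8, 1 in each group, the median of the members was -0.06 and again none was called, where 0% of all genes were higher and 0.00605% lower. The genes next to rla-0 at the high end were rpl-3 (0.10), whose protein lies near the peptidyl transferase centre, rpl-37 (0.07) and rpl-9 (0.07), and next to rpl-24.2 at the low end were rps-29 (-0.09), rpl-35 (-0.07) and rpl-30 (-0.07).

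The responses of the 2 strains to their labelled RNAi were compared by the difference of the differences. By edgeR 0 members passed, where 0.108% of all genes were called, 0.102% higher and 0.00602% lower. DESeq2 called 0 members, where 0.638% of all genes were higher and 0.138% lower. The median difference of the responses was 0.07, the median of all genes being 0.15. rpl-11.2 alone had an unadjusted p under 0.05, where 12.3% of all genes did, with 0.73 ± 0.34 (edgeR adjusted p = 0.394). With the replicate block rpl-11.2 (adjusted p = 0.00657), rpl-25.1 (0.0122) and rpl-24.2 (0.0269) passed by edgeR, where 15% of all genes were called higher and 11.2% lower. The same 3 passed without libraries 7 and 8, where 7.65% of all genes were higher and 5.59% lower. The adjusted p of these 3 over 19 other settings ran up to 0.696, 0.766 and 0.774.

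The comparison of daf-16(mu86) on vector with TU3311 on vector shares its daf-16(mu86) vector libraries with the first comparison. On the TMM scale 79 of 81 members had a positive log2 difference, where 38.2% of all genes had one. Their median was 0.59 (1.51-fold), while the median of all genes tested was -0.38. The 3 daf-16(mu86) libraries stood above the 3 TU3311 libraries for 75 members, against 25.8% of all genes. They stood below for 2 members, rpl-11.2 and rpl-25.1, against 30.7% of all genes. The groups overlapped for the other 4, rpl-24.2, rpl-37, rpl-41.1 and rpl-41.2.

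By edgeR 0 members passed an adjusted p of 0.05 in the strain comparison, where 6.64% of all genes were called, 0.132% higher and 6.5% lower. The lowest adjusted p of a member was 0.0567, and 76 members had an unadjusted p under 0.05, where 44.1% of all genes did. DESeq2 called 76 members higher, where it called 19.3% of all genes higher and 10.1% lower. Without libraries 7 and 8 edgeR called 71 members higher and rpl-11.2 lower, where 15.8% of all genes were higher and 15.7% lower, and the median of the members was 0.46. With upper-quartile factors it called 6 members higher, where 0.487% of all genes were higher and 10.9% lower, and with library totals 3, where 0.15% were higher and 17.2% lower. The distance of the members' median from that of all genes was 0.97 on the TMM scale, 0.65 without libraries 7 and 8, and 0.65 to 1.13 over 13 other settings.

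rpl-11.1 had the highest log2 difference of the members between the strains. It had 1472, 1354 and 1451 CPM in daf-16(mu86) on vector, against 559, 931 and 865 CPM in TU3311 on vector. Every daf-16(mu86) library lay above every TU3311 library, and library 7 was the lowest. The log2 difference was 0.86 ± 0.26 (edgeR adjusted p = 0.0567). The same order of groups held for rpl-25.2 (0.77 ± 0.24, adjusted p = 0.0623), rps-2 (0.74 ± 0.23, adjusted p = 0.0643) and rpl-7A (0.72 ± 0.22, adjusted p = 0.0599).

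Most other members lay close together around the median of the strain comparison, the SD over all 81 log2 differences being 0.199 with the 2 negative members included. For rps-25, the most abundant per kilobase, the levels were 1660, 1720 and 1632 CPM in daf-16(mu86) on vector, against 873, 1082 and 1375 CPM in TU3311 on vector. The groups did not overlap, and library 7 was again the lowest. The log2 difference was 0.59 ± 0.21 (edgeR adjusted p = 0.0797). The stalk genes rla-0, rla-1 and rla-2 stood at 0.40 ± 0.18, 0.53 ± 0.21 and 0.54 ± 0.21, and ubl-1 at 0.60 ± 0.21. The medians of large and small subunit genes were 0.58 and 0.60.

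rpl-11.2 and rpl-25.1 were the members with a negative log2 difference between the strains. rpl-11.2 had 189, 203 and 182 CPM in daf-16(mu86) on vector, against 347, 217 and 270.2 CPM in TU3311 on vector. rpl-25.1 had 92.0, 105 and 91.4 CPM in daf-16(mu86) on vector, against 170, 107 and 133 CPM in TU3311 on vector. For both genes every daf-16(mu86) library lay below every TU3311 library, by a narrow margin to library 9, and library 7 was the highest, the reverse of its place for rpl-11.1 and rps-25.

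The log2 difference between the strains was -0.54 ± 0.24 for rpl-11.2 (edgeR adjusted p = 0.103) and -0.51 ± 0.25 for rpl-25.1 (adjusted p = 0.128). Without libraries 7 and 8 it was -0.35 (adjusted p = 0.0485) and -0.32 (adjusted p = 0.0654); over 13 other settings the adjusted p ran from 0.0485 to 0.346 and from 0.0654 to 0.397. The minor paralogs rpl-24.2 (0.31 ± 0.21) and rpl-41.1 (0.14 ± 0.28) lay between these genes and the rest.

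**Figure D3:**
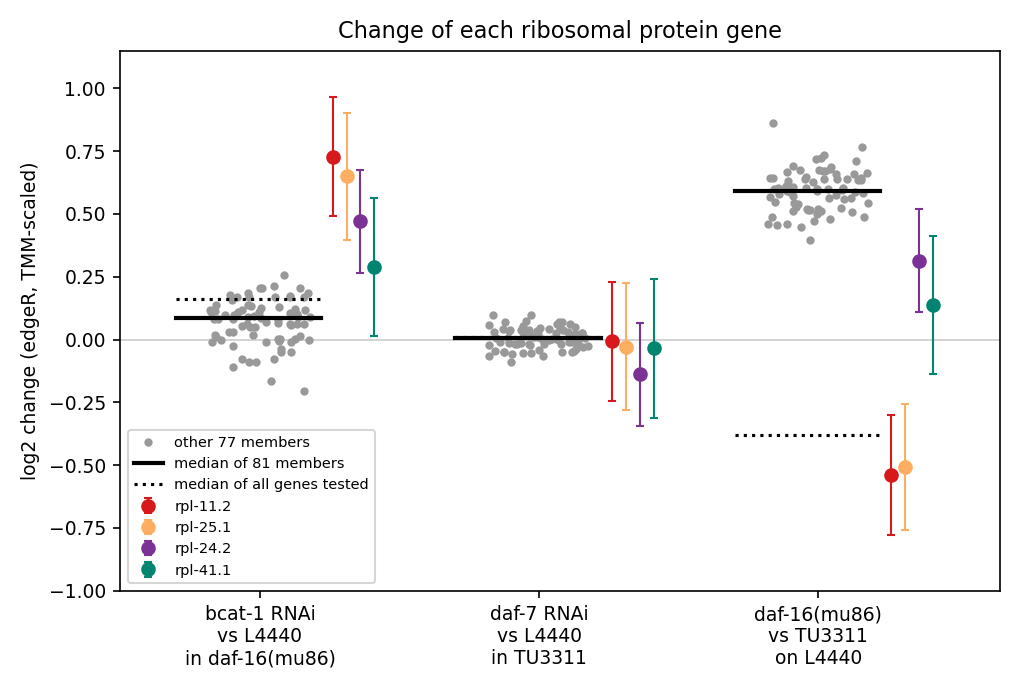
Log2 difference of each member on the TMM scale in the 3 comparisons, with the 4 minor paralogs in colour (error bars are SE), the other 77 members in grey, the members' median as a solid line and the median of all genes tested as a dotted line. In the strain comparison the members' median of 0.59 lies above that of all genes, -0.38, while rpl-11.2 and rpl-25.1 lie at -0.54 and -0.51.

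Members that departed from the other members were tested by scaling each library on the members themselves and repeating the edgeR fit over all genes. On that scale rpl-11.2 (-1.20 ± 0.31, edgeR adjusted p = 0.0169) and rpl-25.1 (-1.17 ± 0.33, adjusted p = 0.0196) were lower in daf-16(mu86) than in TU3311 on vector. So were 46.5% of all genes, while 0.0481% were higher, so these 2 members went with a large part of the other genes and away from the other ribosomal protein genes. Over 8 other settings rpl-11.2 passed in 5 (adjusted p 0.00285 to 0.0656) and rpl-25.1 in 4 (adjusted p 0.00188 to 0.0804). Neither passed without daf-16(mu86) vector replicate 1 or 2 or TU3311 vector replicate 1, which is library 7, and rpl-25.1 did not without daf-16(mu86) vector replicate 3. rpl-41.1 stood at -0.42 (adjusted p = 0.0802) and passed only without libraries 7 and 8, where 42.1% of all genes were lower and 0.163% higher.

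On the same member scale no gene of the set departed between daf-16(mu86) labelled bcat-1 RNAi and daf-16(mu86) on vector (lowest edgeR adjusted p = 0.0939, for rpl-24.2), where 0.698% of all genes were higher and 0.126% lower. At an unadjusted p under 0.05 there was 1 member. With the replicate block rpl-11.2 (0.66 ± 0.11), rpl-25.1 (0.58 ± 0.09) and rpl-24.2 (0.40 ± 0.09) were higher (adjusted p = 0.00312, 0.00308 and 0.00991), where 21.5% of all genes were higher and 22% lower. They also passed without libraries 7 and 8, where 15.7% of all genes were higher and 22.7% lower; over 9 other settings their adjusted p ran up to 0.465, 0.509 and 0.338. Between TU3311 labelled daf-7 RNAi and TU3311 on vector no member departed by edgeR (0 at an unadjusted p under 0.05), where 0% of all genes were called.

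A ratio of 2 genes within a library is also free of scaling, and it shows how the counts of a pair were split between its genes. rpl-11.2 made up 17.3, 23.8 and 15.9% of the counts of its pair in daf-16(mu86) labelled bcat-1 RNAi, against 11.37, 13.03 and 11.13% on vector. In TU3311 it made up 38.3, 19.9 and 20.1% with labelled daf-7 RNAi, against 38.3, 18.9 and 23.8% on vector. The daf-16(mu86) vector libraries were the lowest of all 12, and libraries 7 and 8 the highest.

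The log2 ratio of rpl-11.2 to rpl-11.1 differed by 0.79 between daf-16(mu86) labelled bcat-1 RNAi and vector (1.73-fold), with no overlap and with the RNAi library higher in 3 of 3 neighbouring pairs. It differed by -0.07 between the TU3311 groups, which overlapped, and by -1.41 between daf-16(mu86) and TU3311 on vector, with no overlap. Without libraries 7 and 8 the strain difference was -1.01.

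rpl-25.1 followed the same order of libraries. It made up 13.2, 15.7 and 12.1% of its pair in daf-16(mu86) labelled bcat-1 RNAi, against 8.38, 9.18 and 7.90% on vector. In TU3311 it made up 28.5, 13.6 and 13.7% with labelled daf-7 RNAi, against 28.1, 13.4 and 15.97% on vector. Again libraries 7 and 8 were highest and the daf-16(mu86) vector libraries lowest, and the log2 ratio to rpl-25.2 differed by 0.77, -0.07 and -1.29 in the 3 comparisons.

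rpl-24.2, whose pair lies on chromosome I in full, made up 7.37, 7.54 and 8.86% of its pair in daf-16(mu86) labelled bcat-1 RNAi, against 5.54, 5.86 and 6.46% on vector. In TU3311 it made up 6.69, 6.53 and 6.07% with labelled daf-7 RNAi, against 6.97, 6.99 and 7.40% on vector. The groups did not overlap in any of the 3 comparisons, with log2 ratios differing by 0.44, -0.16 and -0.28, but libraries 7 and 8 did not stand out. rpl-41.1, which lies next to rpl-41.2 on chromosome I, made up a mean of 7.33 ± 1.14% in daf-16(mu86) labelled bcat-1 RNAi, 6.70 ± 0.179% in daf-16(mu86) on vector, 8.24 ± 1.17% in TU3311 labelled daf-7 RNAi and 8.22 ± 1.14% in TU3311 on vector (SD, n = 3 each). Its groups overlapped in both RNAi comparisons and not between the strains.

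Of the 12 comparisons of paralog ratios, 8 had no overlap and so the smallest p that 3 against 3 libraries allow, 0.1 in a two-sided exact permutation test. Adjusted over the 12 by Benjamini-Hochberg this is 0.15, so none could pass 0.05. The sources used here do not say how reads that map to several genes were counted, so the split between paralogs is uncertain to the extent that their sequences match.

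**Figure D4:**
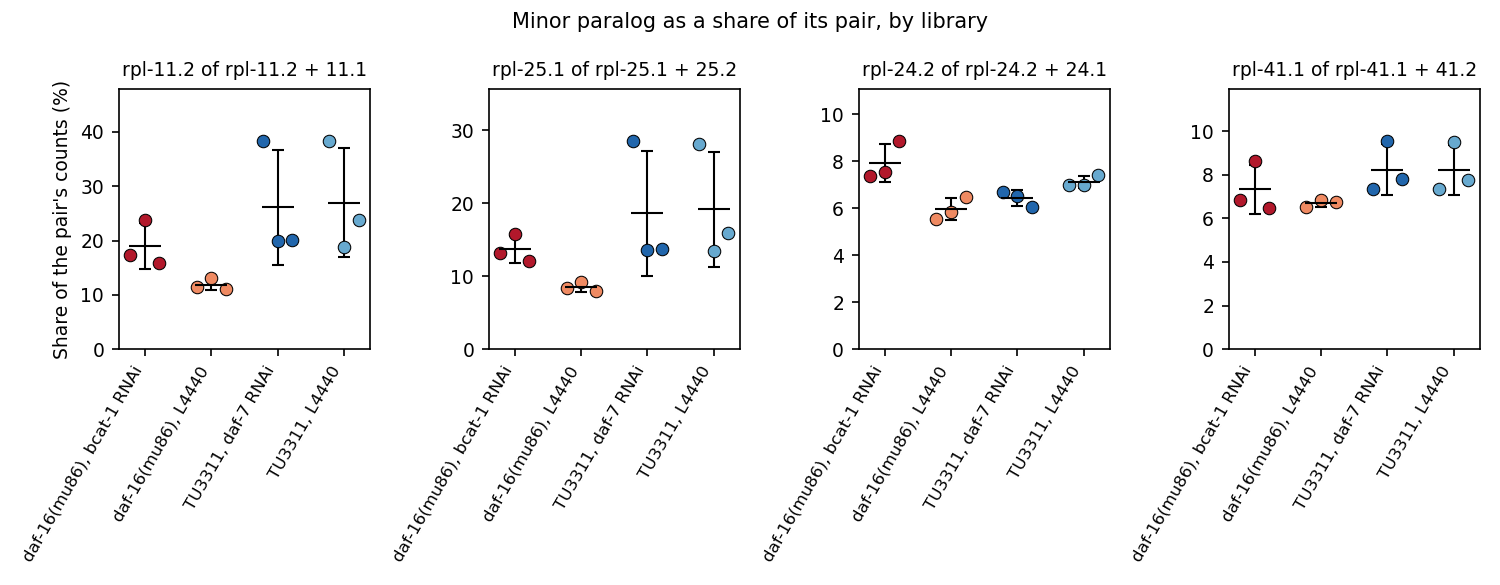
Counts of the minor paralog as a percent of the counts of its pair, by group; points are libraries, dashes means and error bars SD (n = 3), each panel with its own axis from 0. For the X-linked rpl-11.2 and rpl-25.1 the 3 daf-16(mu86) vector libraries are lowest and 1 library of each TU3311 group, library 8 or 7, is far above the others at 28.1 to 38.3%.

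The 2 departing members are the only ones on the X chromosome; 25 members lie on chromosome I, 9 on II, 19 on III, 18 on IV and 8 on V. Of the X-linked genes tested, 2356 in number, the median log2 difference was 0.38 between daf-16(mu86) labelled bcat-1 RNAi and vector, and that of autosomal genes 0.11. Between daf-16(mu86) and TU3311 on vector the medians were -0.63 for X-linked and -0.31 for autosomal genes. rpl-11.2 exceeded 70.0% of X-linked genes in the first of these comparisons and 55.6% in the second, and rpl-25.1 exceeded 66.1 and 57.8%. Both members thus lay within the middle part of the X-linked genes. Autosomal members had similar medians on each chromosome, from 0.06 on I to 0.10 on II in the bcat-1 comparison and from 0.54 on V to 0.60 on II between the strains, while the medians of all genes ranged over chromosomes from -0.05 on III to 0.28 on V and from -0.53 on V to 0.13 on III.

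Marker genes of the germ line and oocytes were set beside these results. The summed level of the 20 markers was 14763, 12020 and 13532 CPM in daf-16(mu86) labelled bcat-1 RNAi, against 23542, 22128 and 19431 CPM on vector. It was 5913, 15320 and 15365 CPM in TU3311 labelled daf-7 RNAi, against 5792, 14707 and 14195 CPM on vector. The daf-16(mu86) vector libraries, lowest in the X-linked share of each pair, were highest in these markers, and libraries 7 and 8, highest in that share, were lowest. The remaining libraries did not keep this order throughout. Libraries 10 and 12 (TU3311 labelled daf-7 RNAi) were above library 6 (daf-16(mu86) labelled bcat-1 RNAi) in the markers. Their rpl-11.2 share was also higher, 19.9 and 20.1% against 15.9%, as was their rpl-25.1 share, 13.6 and 13.7% against 12.1%. None of the 20 markers was at 0 in any group.

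The median log2 difference of the germline markers was -0.65 between daf-16(mu86) labelled bcat-1 RNAi and vector, 0.07 between the TU3311 groups and 0.93 between the strains. By edgeR 0 of 20 were called in each, and without libraries 7 and 8 there were 20 lower in the first, where 14.8% of all genes were lower, and 19 higher in the third, where 15.8% were higher. In the first comparison the members' summed share of counts was larger in the group with the lower marker level, and in the third it was larger in the group with the higher marker level. The part of germline RNA in the members' results was not tested. Of the other marker lists, the medians in the bcat-1, daf-7 and strain comparisons were 0.98, 0.19 and -2.76 for 8 tested sperm markers of 10, 0.299, 0.04 and -0.29 for 13 embryo markers of 15, -0.10, 0.17 and -0.13 for 12 intestine markers, -0.06, 0.21 and -1.03 for 10 body wall muscle markers, and 0.76, -0.03 and -0.75 for 10 neuron markers. In the first comparison 2 embryo, 1 intestine and 1 neuron marker were called higher by edgeR, in the second none, and in the third 2 sperm, 1 embryo, 1 intestine, 3 muscle and 2 neuron markers were called lower. Of all genes 4.18% were called higher in the first and 6.5% lower in the third, so that a single called marker in a list of 10 to 13 is near the background. In the fit without libraries 7 and 8, 9 of 10 neuron markers were higher in the first and 6 of 10 lower in the third. Also called there in the first were 3 sperm, 3 embryo, 2 intestine and 1 muscle marker higher and 1 embryo marker lower. In the third 2 sperm, 4 embryo, 1 intestine and 3 muscle markers were lower, and 1 embryo and 1 intestine marker higher. Of all genes 20.9% were higher in the first and 15.7% lower in the third.

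**Figure D5:**
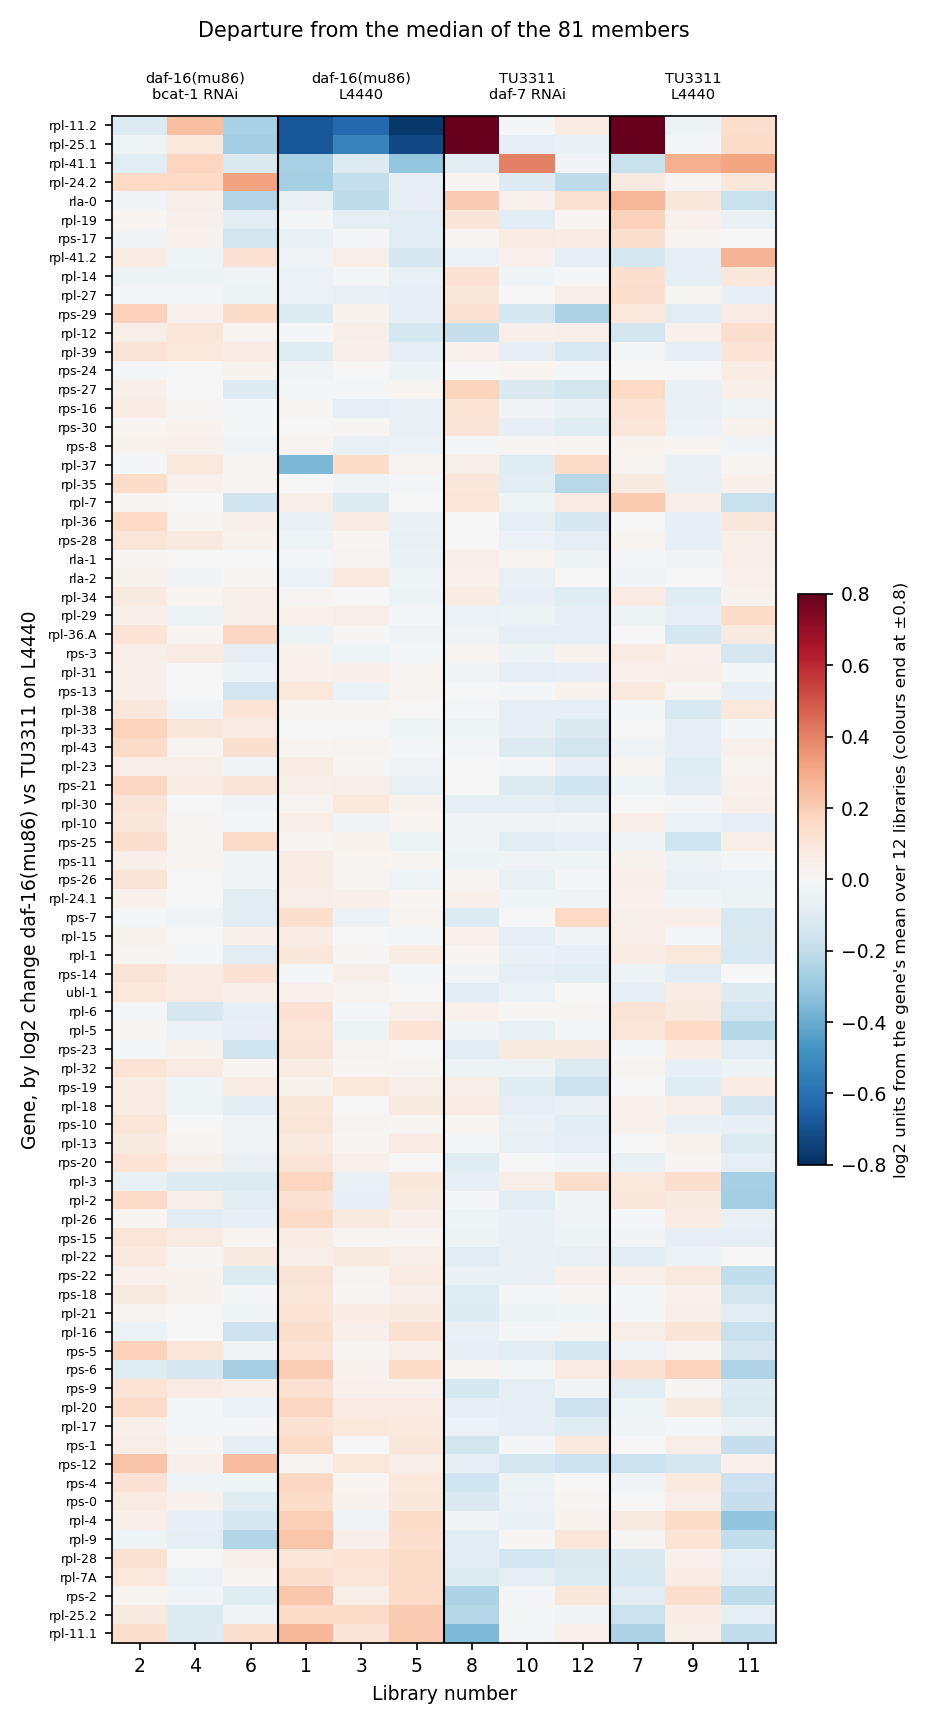
Departure of each member (rows, ordered by the log2 difference between the strains) from the members' median of its library, in log2 units from the gene's own mean over 12 libraries; columns are libraries by group. rpl-11.2 and rpl-25.1 are 0.54 to 0.77 below their mean in daf-16(mu86) on vector and 0.98 to 1.09 above it in libraries 8 and 7, while the SD over the 77 members other than the minor paralogs is 0.05 to 0.11 in every library.

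The heat map of departures shows how closely the remaining members kept together. A departure here is a gene's distance from the members' median of its library, less the gene's own mean distance over the 12 libraries. A positive departure is thus above the gene's own mean, not above the members' median. Its SD was taken over the 77 members other than rpl-11.2, rpl-25.1, rpl-24.2 and rpl-41.1. That SD was 0.0452 log2 units in the closest library, library 10, and 0.110 in the widest, library 11. In library 7 rpl-11.2 lay 1.08 and rpl-25.1 1.09 above their own means, and in library 8 they lay 0.98 and 1.06 above. In the daf-16(mu86) vector libraries rpl-11.2 departed by -0.68, -0.62 and -0.77 and rpl-25.1 by -0.68, -0.54 and -0.72. These are several times the spread of the 77.

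Across the 12 libraries 78 of 81 members had a Pearson correlation of at least 0.9 between their log2 CPM and the mean of the other members. The exceptions were rpl-11.2 (-0.34), rpl-25.1 (-0.33) and rpl-41.1 (0.76). The closest was rps-15 (0.999). The libraries fall into strain groups and share a scaling, so these values describe likeness only and have no p. Among 7828 genes outside the set with at least 10 CPM on average, the 5 most like the members' mean were Y37E3.8 (r = 0.993), ubq-2 (0.993), Y39A1A.3 (0.990), trx-2 (0.989) and mrpl-41 (0.988). ubq-2 encodes ubiquitin fused to a large subunit protein, but its symbol is outside the naming rule. Its log2 differences were -0.00495 in the bcat-1 comparison, 0.01 in the daf-7 comparison and 0.56 between the strains, beside 0.09, 0.01 and 0.59 for the members' median. mrpl-41 encodes a mitochondrial ribosomal protein and trx-2 a mitochondrial thioredoxin.

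Members of different length differed slightly in both RNAi comparisons. In the bcat-1 comparison the 35 members with under 500 bases of exon had a median log2 difference of 0.14 and the 20 with at least 700 bases one of 0.00. In the daf-7 comparison these medians were -0.02 and 0.03, and between the strains 0.54 and 0.62. Across the 77 members other than the minor paralogs, Pearson's r of the log2 difference with log2 exon length was -0.60 in the bcat-1 comparison, 0.56 in the daf-7 comparison and 0.41 between the strains. Across all 81 members it was -0.36, 0.51 and 0.15 in the same order. Members share their libraries and their scaling, so these are descriptions across genes and have no p.

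Other genes of the translation machinery, in lists chosen by name, were set beside the members. In the bcat-1 comparison 0 genes of each list passed by edgeR, with medians of -0.13 for 8 elongation factor genes, -0.38 for 32 initiation factor genes, -0.17 for 69 mitochondrial ribosomal protein genes, -0.21 for 22 genes of ribosome assembly and RNA polymerase I, and -0.05 for 5 ribosome-associated and ubiquitin fusion genes. All 5 medians were negative and that of the cytosolic ribosomal protein genes was 0.09. Without libraries 7 and 8, 21 of 32 initiation factor genes were lower in daf-16(mu86) labelled bcat-1 RNAi and 0 higher, 12 of 69 mitochondrial ribosomal protein genes were lower and 0 higher, and 5 of 22 assembly genes were lower and 1 higher. In that fit 2 of 8 elongation factor genes were higher and 0 lower, 0 of 5 ribosome-associated genes were called, and 3 of 81 cytosolic members were higher and 0 lower. Of all genes 14.8% were lower and 20.9% higher, so the mitochondrial and assembly counts of lower genes were near the background and the cytosolic count of higher genes was under it. With RLE factors the cytosolic members' median was -0.12, but the median of all genes moved as well, from 0.16 to -0.04. The members' distance from it was -0.07 on the TMM scale and -0.08 with RLE factors. The medians of the other lists were not taken with RLE factors, so they cannot be set beside -0.12.

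In the daf-7 comparison the same 5 lists had medians of 0.07, 0.08, 0.01, -0.02 and 0.04 in that order, with 0 genes called. Between the strains the medians were 0.61, 0.59, 0.66, 0.63 and 0.65, beside 0.59 for the cytosolic ribosomal protein genes, again with 0 called by edgeR. Without libraries 7 and 8, 5 of 8 elongation factor genes, 25 of 32 initiation factor genes, 51 of 69 mitochondrial ribosomal protein genes, 15 of 22 assembly genes and 4 of 5 ribosome-associated genes were higher in daf-16(mu86) on vector than in TU3311 on vector, and none was lower, where 15.8% of all genes were higher and 15.7% lower.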

How the data were processed

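Whole worms gave 12 libraries, made with the TruSeq RNA kit, per the labels' protocols. The authors deposited raw counts of reads per gene. Their processing notes list the build WBcel235 and the tools featureCounts 1.4.6-p4, STAR 2.4.1d and bcl2fastq 1.8.4, per the submitters; the annotation release, strand setting and handling of multiply mapped reads are not given in the sources used here. The deposited RPKM values were not used. Samples were grouped by strain and perturbation as labelled, with 3 libraries each.

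The main test was edgeR's quasi-likelihood F test (edgeR 4.0.16, R 4.3.3), two-sided and robust, on TMM-normalized libraries after the tool's own expression filter, with all 4 groups in 1 fit and 8 residual degrees of freedom. P-values were adjusted by Benjamini-Hochberg over all 16618 genes, with a threshold of 0.05, and DESeq2 1.42.0 was an alternative. SE is the absolute log2 difference over the square root of F. CPM are TMM-scaled, log2 CPM use a prior count of 2, and exon lengths and positions are from annotation release 115. A second fit scaled libraries on the median ratio of the members to their mean over libraries. Both were tried on simulated counts with the same relative spread for every gene and no shift of the members as a set. That setting does not cover libraries that stand apart or a shift of the whole set. With 30130249 to 45343624 counts per library, members had from 795 counts upwards in any library, so counting error was small beside their levels. It was not small beside the spread between libraries for every member.

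Named are the 4 highest and 4 lowest members of each comparison, members departing from the others, both genes of each numbered pair, rla-0, rla-1, rla-2 and ubl-1, and the 4 most and least abundant; rpl-19, rpl-33, rps-3, rpl-39, rpl-4 and rps-15 were named after their values were seen. Members and lists were chosen with earlier results of these data known. Neighbouring library numbers correlated in their deviations from group means at 0.158 to 0.892 over all genes in the 6 pairs, each over 0.1, so they were taken as pairs; this comes from the values, not the labels. Over the members alone the correlation was 0.483, 0.0978 and 0.0945 in the daf-16(mu86) pairs and 0.810, 0.647 and -0.180 in the TU3311 pairs, lower than over all genes in every pair but libraries 1 and 2. As no pair spans the strains, the strain comparison has no blocked value. No 2 libraries of a group agreed within sampling noise.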

Additional observations from a re-analysis of the deposited data

How the results depend on the processing

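Members called by edgeR in the bcat-1 comparison numbered 0, but 1 with upper-quartile factors or library totals (rpl-24.2), 3 without libraries 7 and 8, 3 with neighbouring numbers as a replicate block and 6 with only the 6 libraries compared, and their median log2 difference was -0.12 with RLE factors or DESeq2, 0.23 with upper-quartile factors and 0.29 with library totals. Members departing from the others there numbered 3 without libraries 7 and 8 and 3 with the block. Between the strains 6 members were called with upper-quartile factors, 3 with library totals, 76 by DESeq2 and 72 without libraries 7 and 8, with 0 to 2 when each replicate was left out (rpl-4 and rps-6 without TU3311 vector replicate 2); the median was 0.31 with upper-quartile factors and 0.33 with library totals, and the 2 departing members became 0 to 2 when each replicate was left out. For the difference between the responses 3 members were called without libraries 7 and 8 and 3 with the block, and the median was -0.13 with RLE factors or DESeq2 and 0.299 with library totals. The share of all genes called in the fits that leave out a replicate is not given here. The cause of these differences was not tested. RLE factors, upper-quartile factors and totals shifted the all-gene median by -0.20, 0.15 and 0.20 in the bcat-1 comparison and by 0.21, -0.33 and -0.28 between the strains. The block changed no other call of a member. The share differences ranged from 1.43 to 1.88, -0.44 to 0.41 and 1.28 to 2.13 points when each replicate was left out. No value that passed its test changed sign, but the medians of members in the bcat-1 comparison and in the difference between the responses turned negative as given above, and the sign of the share difference in TU3311 depended on the replicate left out. Ratios of paralogs with replicates or libraries left out were added after seeing the data. With 3 libraries a group, small differences between members were not detectable.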
